A study of Mus musculus with 22 samples.

Results

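Of 5585 autosomal regions of 50 kb or longer over which the number of untreated lists calling a lamina-associated domain (LAD) was constant, 1997 were called in exactly 1 or exactly 2 of the 3 wild-type (WT) lists. These variable regions covered 250.9 Mb, against 2078 consensus regions called in all 3 WT lists (1270 Mb) and 1510 regions called in none (800.2 Mb). To find them, LAD intervals less than 25 kb apart were joined on chromosomes 1 to 19 in each list, LADs over 100 kb were kept, and the 3 WT lists were overlaid. A region called in 1 WT list is named a 1-list region here (949 regions) and a region called in 2 WT lists a 2-list region (1048 regions). The regions were chosen by their calls in the WT lists, so every value from those lists is a description, and tests were made only in lists of treated cells.

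LADs are long stretches of mostly silent chromatin that lie against the nuclear lamina, the protein meshwork under the inner nuclear membrane that is built from A-type and B-type lamins. In DamID a bacterial adenine methylase fused to lamin B1 marks the DNA that comes close to the lamina, and the methylase alone, expressed in parallel, gives the accessibility background. Part of the LAD landscape is shared between cell types, and part differs between cell types or between single cells of 1 type.

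All cells were primary mouse embryonic fibroblasts of strain C57bl/6, from e13.5 embryos, kept for at most 5 passages. Each of 11 LAD lists came from a pair of samples, Dam-lamin B1 and Dam-only, which gives 22 samples. The WT group held untreated cells of embryos 1.5, 1.8 and x17, with no control hairpin and no vehicle arm named in the labels. The 4 treatments had 2 lists each: a short hairpin against lamin A/C (shAC, embryos 1.5 and x17), the G9a/GLP histone methyltransferase inhibitor BIX01294, the methylation inhibitor DZNep, and the histone deacetylase inhibitor TSA (all 3 in embryos 1.8 and x17). The drugs were given 18 to 24 hours before the Dam virus and cells were taken at 60 hours, while Dam virus was added 4 days after the hairpin and cells were taken 48 hours later. Each embryo stands for 1 culture per condition, and the same embryos gave the WT and the treated lists. The lists hold intervals only, so read depth behind a call is unknown, the knockdown of lamin A/C could not be checked, and neither could the cell type, since no expression is in the lists.

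After joining, the WT list of embryo 1.5 held 1849 LADs over 1377 Mb, that of embryo 1.8 held 2187 over 1507 Mb and that of embryo x17 held 2016 over 1429 Mb. The treated lists ran from 1302 Mb (TSA, embryo x17) to 1536 Mb (BIX01294, embryo x17), so lists of 1 treatment and of 1 embryo differed in total length. That length may bear on the shares of variable regions called below. It is set beside the share of each treated list where the treatments are compared.

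Segments of any length called in 1 or 2 WT lists numbered 7811 and spanned 332 Mb, or 13.8% of the 2415 Mb between the outermost calls of the autosomes, against 52.6% for consensus and 33.6% for bases never called. The 1997 regions of 50 kb or longer held 75.5% of these variable bases, so most variable segments were short while most variable bases were in long ones. The median length was 113 kb for 1-list and 106 kb for 2-list regions, and the longest were 674 kb and 668 kb. At the length limit, the shortest regions kept were 50004, 50023 and 50032 bp and the longest left out were 49892, 49937 and 49973 bp.

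Each region was placed by the stretch of changing calls that holds it. An edge has a consensus block on 1 side of that stretch, a bridge has consensus blocks on both sides, and an isolated region has none. Among 2-list regions, 533 were edges (50.9%), 258 bridges (24.6%) and 257 isolated (24.5%). Among 1-list regions, 400 were edges (42.1%), 89 bridges (9.38%) and 460 isolated (48.5%). Isolated was thus the largest of the 3 classes among 1-list regions and edge the largest among 2-list regions. Isolated regions were the longest of the classes, with medians of 136 kb (1-list) and 140 kb (2-list), against 88.2 and 97.0 kb for edges and 71.6 and 83.6 kb for bridges. The length filter does not treat the classes alike. An isolated stretch must hold a whole LAD over 100 kb, while an edge or bridge can be a short extension of a longer LAD. How much of the order in length this sets was not tested. The longest block that a bridge touched had a median of 633 kb, that of an edge 274 kb, and all consensus blocks 317 kb. These medians are not like for like, since the longer of 2 blocks was taken for a bridge and an edge touches only 1. The variable stretches that held the regions numbered 1652, of which 1368 held a single region and the others 2 to 6.

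The embryos did not contribute equally. Embryo 1.8, with the longest WT list, was the sole caller of 550 of the 1-list regions (58.0%, 74.3 Mb), embryo x17 of 290 (30.6%, 37.4 Mb) and embryo 1.5, with the shortest list, of 109 (11.5%, 10.4 Mb). Of the 2-list regions, 517 (49.3%) were called in embryos 1.8 and x17, 376 (35.9%) in embryos 1.5 and 1.8 and 155 (14.8%) in embryos 1.5 and x17. The order of these numbers is that of the list lengths, and the part of list length in it was not tested. Position also went with the embryo: 78 of the 155 regions that embryo 1.8 lacked were bridges (50.3%), against 18.6% of those that embryo 1.5 lacked and 22.3% of those that embryo x17 lacked. Isolated regions made up 54.7% of those called in embryo 1.8 alone, 45.9% of those in embryo x17 alone and 23.9% of those in embryo 1.5 alone.

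**Figure D1:**
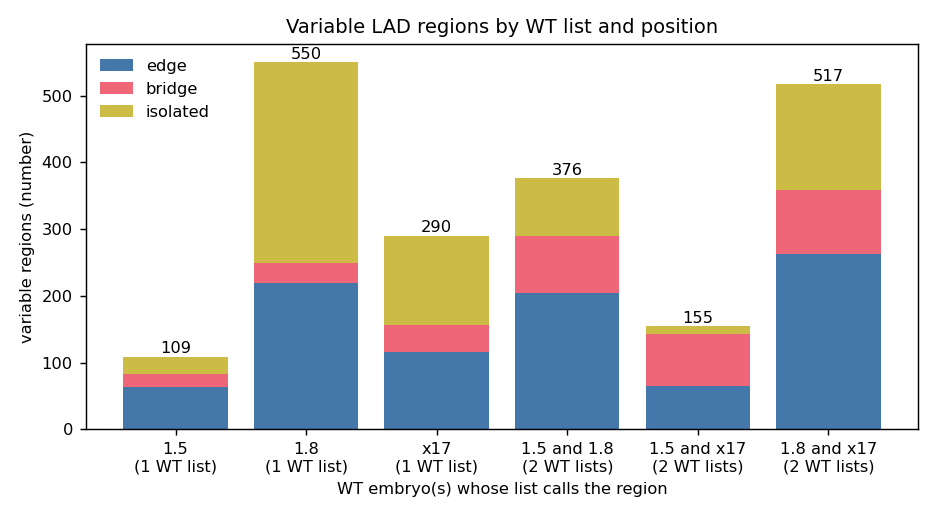
Number of variable regions (vertical axis) by the WT embryo or embryos whose list called them (horizontal axis), split into edge, bridge and isolated regions by colour. Embryo 1.8 alone gave 550 regions, of which 301 were isolated, and bridges made up 78 of the 155 regions called in embryos 1.5 and x17.

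Variable regions were found on each of the 19 autosomes. They were sparsest on chromosome 7, with 0.568 regions per Mb that took up 6.81% of its span, and densest on chromosome 13, with 1.05 per Mb over 14.0% of its span.

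Before joining and filtering, the WT list that lacked a variable region was often not empty there. Over the 1898 pairs of a 1-list region and a WT list without it, the deposited intervals covered at least 50% of the region in 220 pairs (11.6%) and none of it in 1033 (54.4%). Over the 1048 such pairs of 2-list regions, they covered at least 50% in 235 (22.4%) and none in 490 (46.8%). In the lists that called the regions, the deposited intervals covered a mean of 86.2% (1-list) and 92.8% (2-list) of the bases. Per region, joining added the largest share of bases in bridges: 15 of the 89 calls of 1-list bridges (16.9%) had under 50% of their bases in deposited intervals, against 4.75% for edges and 2.17% for isolated regions.

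The next question was how often cells under a treatment had a LAD at these places. A region counts as called in a treated list when at least 50% of its length lies in a LAD of that list. Of all 5585 regions, 54.8% and 47.2% were called in the shAC lists of embryos 1.5 and x17, 59.6% and 64.1% in the BIX01294 lists of embryos 1.8 and x17, 56.2% and 57.4% in the DZNep lists and 48.3% and 44.8% in the TSA lists, which is the background for the counts below. Of the 1-list regions, 310 (32.7%) and 228 (24.0%) were called in the shAC lists of embryos 1.5 and x17. The BIX01294 lists of embryos 1.8 and x17 called 419 (44.2%) and 524 (55.2%) of them. They were the highest of the treated lists for 1-list regions. The DZNep lists called 307 (32.3%) and 367 (38.7%), and the TSA lists 267 (28.1%) and 206 (21.7%). Of the 2-list regions, the shAC lists called 699 (66.7%) and 522 (49.8%), and the BIX01294 lists 801 (76.4%) and 890 (84.9%). The DZNep lists were close to each other at 754 (71.9%) and 750 (71.6%), and the TSA lists were low at 532 (50.8%) and 460 (43.9%). In the same lists, consensus regions were called at 86.9 to 99.0% and regions never called in WT at 2.12 to 7.28%, so variable regions lay between these in each of the 8 treated lists.

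**Figure D2:**
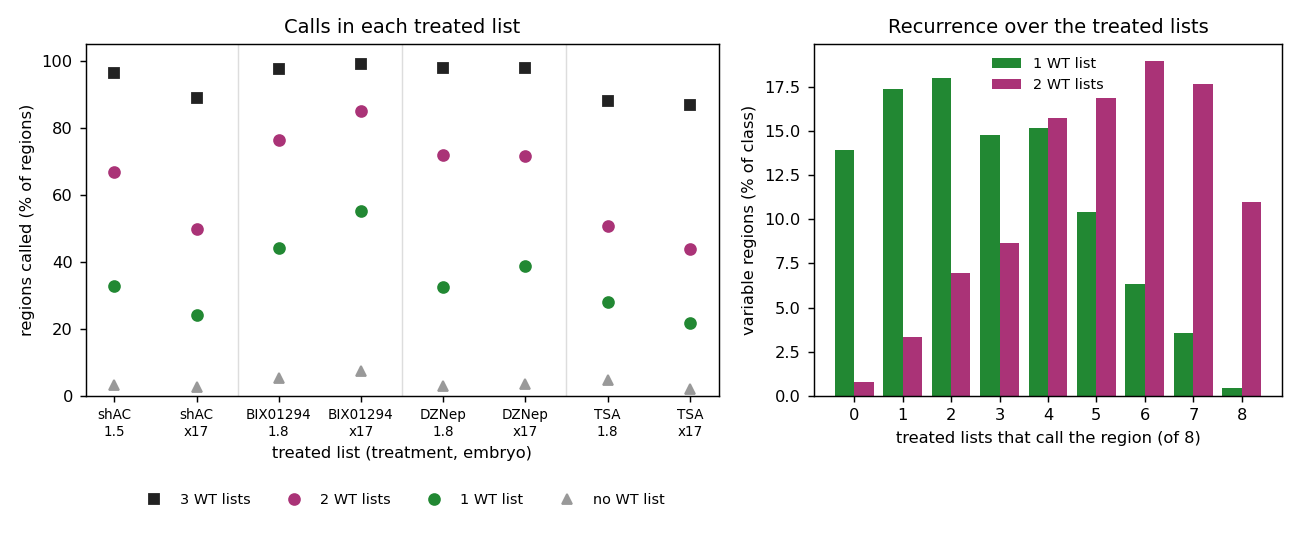
Left, percentage of regions called in each treated list, by the number of WT lists that called them; right, percentage of 1-list and 2-list regions by the number of treated lists, of 8, that called them. In each list the 2-list points lie above the 1-list points by 22.2 to 39.6 percentage points.

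A 2-list region was called more often than a 1-list region in 8 of 8 treated lists. The means over the lists were 64.5% ± 14.6 and 34.6% ± 11.1 (SD, n = 8), a difference of 29.9 ± 6.04 percentage points (exact two-sided sign-flip permutation test, p = 0.00781, the smallest the 8 lists allow, and adjusted p = 0.0391 over 5 comparisons by Benjamini-Hochberg). The p-value measures the spread between these lists, which share 3 embryos and 4 treatments. The test did not hold fixed whether the list's own embryo had called the region in WT, which is more often so for 2-list regions. In shAC of embryo x17, 53.8% of 1-list regions of that embryo were called, against 21.5% of 2-list regions it lacked. In the other lists the 2-list share was higher, narrowly in TSA of embryo x17 (31.9% against 31.4%). Among regions alike in that call, each 2-list set was above each 1-list set in every list, which was not tested. With the replicate block, in which the paired lists of a treatment change sign together (a tie by treatment, not by the embryo x17 that the treatments share), the difference was the same 29.9 points with an adjusted p = 0.625 (exact permutation test), since that arrangement cannot give an unadjusted p under 0.125. Using only the 4 lists of embryo x17, a choice made after seeing the data, gave 27.6 points in the same direction with an adjusted p = 0.208 (exact permutation test, smallest unadjusted p of 0.125). Leaving out any single treated list gave 28.5 to 31.0 points, the same sign in all 7 lists left, so the size did not rest on 1 list. The adjusted p = 0.0781 of each omission (exact permutation test) is what 7 lists of the same sign give when the other 4 comparisons have larger p-values, so it says nothing about which lists matter.

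Counted over the 8 treated lists, the classes spread widely. The median 1-list region was called in 3 and the median 2-list region in 5 of them. Of the 1-list regions 341 (35.9%) and of the 2-list regions 841 (80.2%) were called in 4 or more, against 58.4% of all regions. No treated list called 132 of the 1-list regions (13.9%) and 8 of the 2-list regions (0.763%), against 24.5% of all regions, while all 8 called 4 of the 1-list (0.421%) and 115 of the 2-list regions (10.97%), against 29.8%. Most variable regions therefore recurred in some treated lists and were missing from others, also within the treated cells. The share called was also read by length. The 1-list regions of 50 to 100 kb were called at a mean of 34.5% ± 11.6 (n = 8 lists), those of 100 to 200 kb at 32.6% ± 11.1 and longer ones at 42.5% ± 11.4. For 2-list regions the same means were 63.9% ± 13.3, 64.3% ± 16.04 and 67.3% ± 16.3.

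Coverage of a region in a treated list was read in 3 steps. Over the 8384 pairs of a 2-list region and a treated list, a LAD covered the whole region in 39.6%, part of it in 35.2% and none of it in 25.2%. For the 7592 pairs of 1-list regions these shares were 15.0%, 34.2% and 50.8%. In either class, most pairs had the region covered whole or not at all.

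The 4 longest of the named 2-list regions show both kinds of record. The edge at chr3:6464691-6981007 (mm9, 516 kb, called in embryos 1.8 and x17) was called in all 8 treated lists, with 60.2 to 100% of its length covered. The isolated region at chr12:26229692-26838926 (609 kb, same embryos) was called in all 8 too, at 65.7 to 100%. The isolated region at chr15:50748886-51416563 (668 kb), called in embryos 1.5 and 1.8, split by embryo. It was covered at 55.5% in shAC of embryo 1.5, 82.0% in BIX01294, 100% in DZNep and 88.2% in TSA of embryo 1.8, but at 0% in shAC, 38.2% in DZNep and 0% in TSA of embryo x17, the embryo whose WT list lacked it; BIX01294 of embryo x17 was the exception at 94.8%. The edge at chr4:4938131-5445570 (507 kb, embryos 1.8 and x17) was covered at 88.6 to 100% in the shAC and BIX01294 lists, at 23.3% and 55.2% in DZNep and at 45.4% and 23.8% in TSA.

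Among the bridges, the longest was at chr12:95914582-96386952 (472 kb), between consensus blocks of 222 kb and 131 kb, and was called in WT embryos 1.5 and x17. Its coverage was 100% in both shAC lists, 96.1% in BIX01294 and 53.4% in DZNep of embryo x17, and 0% in the 3 drug lists of embryo 1.8 and in TSA of embryo x17. Apart from that TSA list, its calls followed the embryos of the WT lists. The next bridge in length, at chr3:19782980-20116140 (333 kb, embryos 1.8 and x17), was covered at 62.6% and 45.2% in shAC, 60.4% and 100% in BIX01294, 41.1% and 87.3% in DZNep and 26.0% and 14.0% in TSA.

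Among 1-list regions, the edge at chr12:47215144-47889374 (674 kb, embryo x17) is the longest of all variable regions. It was covered at 52.2 to 94.9% in the shAC, BIX01294 and DZNep lists and at 0% and 35.5% in the TSA lists, and is also the longest region called in all treated lists but TSA. The edge at chr1:76825641-77333085 (507 kb, embryo 1.8) was covered at 97.6% in shAC of embryo 1.5 and 6.68% in shAC of embryo x17, so it differed within that treatment, and BIX01294 covered it at 93.1% and 100%. The bridge at chr4:36407350-36904852 (498 kb, embryo x17) lies beside a consensus block of 2315 kb and was covered at 73.1 to 100% in all 4 lists of embryo x17, at 100% in shAC of embryo 1.5 and at 38.6 to 41.9% in the 3 lists of embryo 1.8. The bridge at chr11:46878909-47205653 (327 kb, embryo 1.8) showed the opposite split, with 0 to 20.4% in the lists of embryo x17, 84.8% in shAC of embryo 1.5, and 100%, 67.9% and 13.6% in BIX01294, DZNep and TSA of embryo 1.8. The isolated region at chr2:120489655-121004657 (515 kb, embryo 1.8) passed the limit in TSA of embryo 1.8 alone, at 50.5%, and the other lists covered 0 to 30.3% of it.

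The longest 1-list regions called in all 8 treated lists were isolated ones at chr13:27833912-28095235 (261 kb, embryo x17, 51.8 to 100% covered) and chr9:40631078-40788340 (157 kb, embryo 1.8, 63.1 to 99.2% covered). The longest 2-list regions called in none were an edge at chr9:95442939-95606833 (164 kb, embryos 1.5 and 1.8), covered at 36.8% at most, and an isolated region at chr1:80667341-80805506 (138 kb, embryos 1.8 and x17), covered at 43.4% in shAC of embryo 1.5 and at 0% in the 7 other lists. The number of WT lists was thus no fixed rule for a single region.

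Position was compared next: among regions of 50 kb or longer called in the same number of WT lists, no difference in share called between edges, bridges and isolated regions passed the test over the 8 lists. For 2-list regions, edges were called at a mean of 63.9% and isolated regions at 62.2%, a difference of 1.75 ± 6.31 points (higher in 5 of 8 lists, exact permutation p = 0.453, adjusted p = 0.453). Bridges were called at 68.1%, which is 4.16 ± 10.4 points above edges (6 of 8 lists, exact permutation p = 0.305, adjusted p = 0.453). For 1-list regions, edges exceeded isolated regions by 2.36 ± 6.03 points (6 of 8 lists, exact permutation p = 0.297, adjusted p = 0.453) and bridges exceeded edges by 3.78 ± 10.6 points (6 of 8 lists, exact permutation p = 0.375, adjusted p = 0.453). These values depend on the settings. With regions of 25 kb or longer, bridges exceeded edges by 6.43 points (2-list, adjusted p = 0.0391) and 10.51 points (1-list, adjusted p = 0.0195, exact permutation tests), and edge minus isolated turned to -0.476 and -1.30. For 2-list regions edge minus isolated was also below 0 with joining under 50 kb (-0.298) and with the intervals as deposited (-4.61), where bridge minus edge was -1.27 (2-list) and -0.292 (1-list). With LADs over 200 kb, bridge minus edge was 9.35 (2-list) and 6.56 points (1-list), and with the 4 lists of embryo x17 alone 8.25 and 8.51. The lowest adjusted p of these was 0.0586 (exact permutation test, LADs over 200 kb, 2-list), and the 4 lists alone cannot pass. With any overlap in place of at least 50% of the length, bridges exceeded edges by 8.08 (2-list) and 10.1 points (1-list) and edges exceeded isolated regions by 10.9 and 16.1 points, each in the same direction in all 8 lists, so these 4 comparisons passed there (adjusted p = 0.00781, exact permutation test). Under that rule a single base of a LAD over an adjoining consensus block counts as a call, and an edge has such a block on 1 side and a bridge on both, so the classes are not alike in it. How much of the difference comes from this was not tested.

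The difference between bridges and edges was positive in both shAC lists and of mixed sign within BIX01294 and TSA. In the shAC lists, 2-list bridges were called 14.2 points (embryo 1.5) and 23.1 points (embryo x17) more often than edges, and 1-list bridges 9.70 and 22.9 points more often. In the drug lists of embryo x17 the same difference lay between 2.11 and 5.47 points for 2-list regions, and in those of embryo 1.8 it was -8.81 in BIX01294, 1.598 in DZNep and -6.66 in TSA. For 2-list regions the mean of the shAC lists was 18.6 points and that of the other 6 lists -0.652, a difference of 19.3 points (exact permutation test over 28 splits, two-sided p = 0.0357, the smallest possible, adjusted p = 0.179 over 20 such comparisons that were chosen after the pattern was seen), so it did not pass after adjustment.

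Since bridges were unevenly spread over the WT embryos, the shAC shares were also read within each set of calling embryos. Of the regions called in embryos 1.8 and x17, shAC of embryo 1.5 called 83.3% of 96 bridges, 72.6% of 263 edges and 61.4% of 158 isolated regions, and shAC of embryo x17 called 80.2%, 63.1% and 48.7%. Of the regions called in embryos 1.5 and 1.8, the shares were 67.9% of 84 bridges, 53.7% of 205 edges and 44.8% of 87 isolated regions in shAC of embryo 1.5, and 39.3%, 19.02% and 10.3% in shAC of embryo x17. Of those called in embryos 1.5 and x17, they were 88.5% of 78 bridges, 75.4% of 65 edges and 58.3% of 12 isolated regions, then 89.7%, 67.7% and 58.3%. The order bridge, edge, isolated held in both shAC lists in each of these 3 sets of 2-list regions. It did not hold throughout for 1-list regions: shAC of embryo 1.5 called 24.1% of 29 bridges and 24.5% of 220 edges of WT embryo 1.8 alone, and 48.8% of 41 bridges, 52.6% of 116 edges and 51.9% of 133 isolated regions of WT embryo x17 alone. In the drug lists the sets differed. Of the 2-list regions of embryos 1.8 and x17, bridges were at or above edges in all 6 drug lists too. They ran from 83.3% for both in BIX01294 of embryo 1.8 to 64.6% against 48.7% in TSA of embryo x17. Of those of embryos 1.5 and 1.8, bridges were below edges in each drug list but BIX01294 of embryo x17 (78.6% against 76.6%). Of those of embryos 1.5 and x17, they were below edges in BIX01294 and TSA of embryo 1.8 and above them in the other drug lists.

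**Figure D3:**
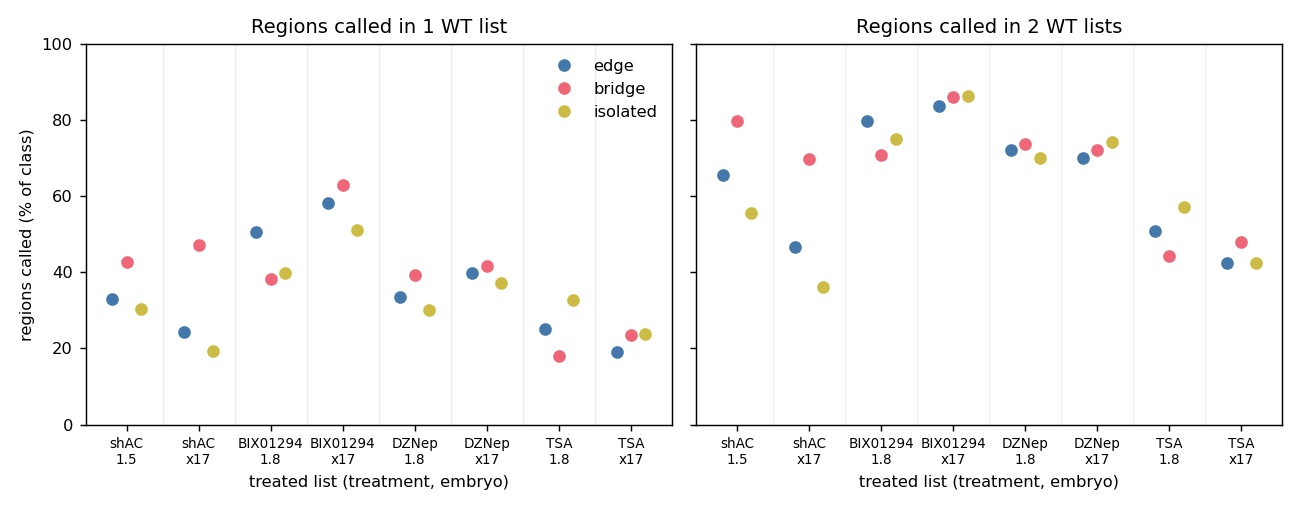
Percentage of edge, bridge and isolated regions called in each treated list, for 1-list (left) and 2-list regions (right). In both shAC lists the bridges lie above the edges, and in the lists of BIX01294 and TSA from embryo 1.8 they lie below them.

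For 1-list regions, the share called was compared between the treated list of the embryo that called them in WT and the other list of the same treatment. Of the 290 regions called in WT embryo x17 alone, the lists of embryo x17 called 53.8% (shAC), 71.7% (BIX01294), 54.1% (DZNep) and 31.4% (TSA), and the drug lists of embryo 1.8 called 28.6%, 26.6% and 18.6%. In shAC, where the other list is of embryo 1.5, it called 51.7% of them. Of the 550 regions called in WT embryo 1.8 alone, BIX01294, DZNep and TSA of embryo 1.8 called 52.2%, 35.8% and 34.9% and those of embryo x17 called 49.6%, 33.1% and 18.4%. Of the 109 regions called in WT embryo 1.5 alone, shAC called 31.2% in the same embryo and 18.3% in embryo x17. The list of the same embryo was the higher one in each of these comparisons, by margins from 2.07 to 43.1 points.

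Averaged over both embryos of a treatment, 1-list regions were called more often in the treated list of the embryo that called them in WT by 7.46 points in shAC, 22.8 in BIX01294, 15.2 in DZNep and 14.7 in TSA. The mean was 15.0 ± 6.28 points (4 of 4 treatments), and an exact one-sided permutation test that swaps the embryos within treatments gave p = 0.0625, the smallest that 16 arrangements allow, so this design cannot reach 0.05. The average cancels a difference in list length only where it moves both sets of regions equally, which was not tested, and the 4 values also share the WT list of embryo x17. Same cells, same culture and any shared handling of an embryo's samples cannot be told apart here. For 2-list regions the mirror value, the mean deficit in the list of the embryo that lacked the call in WT, was 12.0 points in shAC, 15.1 in BIX01294, 15.9 in DZNep and 16.2 in TSA. The shAC mean joins opposite directions: regions that WT embryo x17 lacked were called at 21.5% in shAC of embryo x17 and 54.8% in that of embryo 1.5, but regions that WT embryo 1.5 lacked were called at 71.2% in shAC of embryo 1.5 and 61.9% in that of embryo x17. In the drugs both sets had the same direction, with the lists closest in BIX01294, at 77.7% in embryo x17 against 80.9% in embryo 1.8 for regions that WT embryo x17 lacked.

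**Figure D4:**
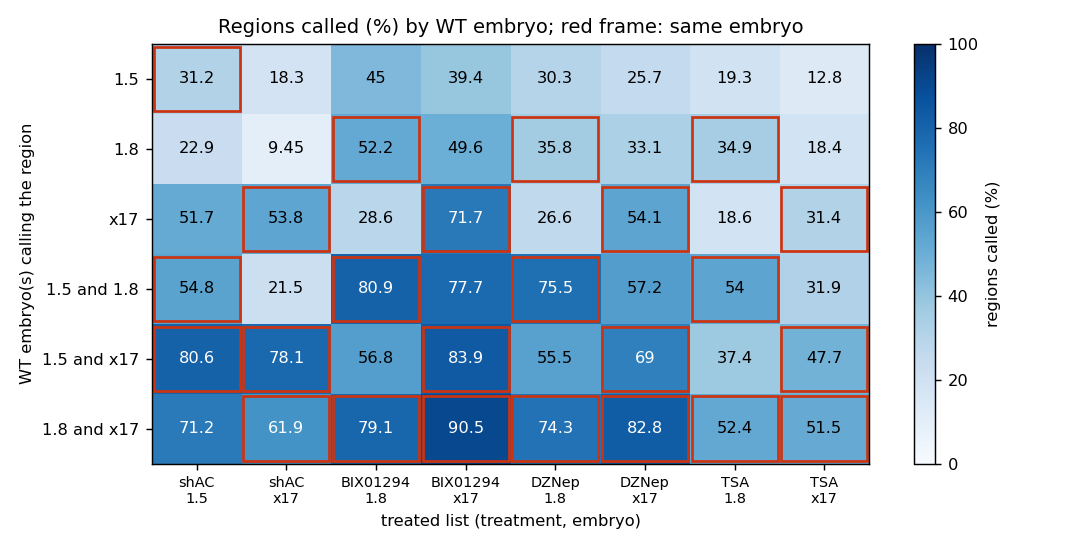
Percentage of variable regions called in each treated list (columns) by the WT embryo or embryos that called them (rows), with frames around lists from an embryo that called the region in WT. BIX01294 of embryo x17 called 71.7% of the regions of embryo x17 alone and BIX01294 of embryo 1.8 called 28.6%.

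The treatments were then compared over all variable regions. The mean share called was 65.9% ± 6.87 in BIX01294, 54.5% ± 1.98 in DZNep, 44.0% ± 9.17 in shAC and 36.7% ± 4.71 in TSA (SD, n = 2 lists each). The lists of single treatments were 61.1% and 70.8% for BIX01294, 53.1% and 55.9% for DZNep, 50.5% and 37.6% for shAC and 40.0% and 33.4% for TSA. BIX01294 and TSA did not overlap, and shAC reached from the level of TSA nearly to that of DZNep. Over all 5585 regions BIX01294 (59.6% and 64.1%) and TSA (48.3% and 44.8%) did not overlap either. The means there had the same order, at 61.9% in BIX01294, 56.8% in DZNep, 51.0% in shAC and 46.6% in TSA. Against the other 6 treated lists, BIX01294 was 20.9 points higher (exact permutation test over 28 splits, p = 0.0357, adjusted p = 0.143 over 4 treatments). TSA was 18.2 points lower (exact permutation p = 0.107, adjusted p = 0.214). The shAC lists were lower by 8.35 points (exact permutation p = 0.429, adjusted p = 0.571) and DZNep higher by 5.64 points (exact permutation p = 0.643, adjusted p = 0.643). Single lists moved these last differences: shAC was -14.8 points without its list of embryo 1.5, -1.86 without that of embryo x17 and -4.66 without BIX01294 of embryo x17, and DZNep was 10.03 points without BIX01294 of embryo x17 and 2.53 without TSA of embryo x17. No treatment passed after adjustment, and the smallest p possible before it is 0.0357.

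The order of these shares was the order of total list length in all 8 treated lists, from TSA of embryo x17 (1302 Mb, 33.4%) over shAC of embryo x17 (1339 Mb, 37.6%), TSA of embryo 1.8 (1356 Mb, 40.0%), shAC of embryo 1.5 (1431 Mb, 50.5%), DZNep (1440 Mb, 53.1% and 1457 Mb, 55.9%) and BIX01294 of embryo 1.8 (1481 Mb, 61.1%) to BIX01294 of embryo x17 (1536 Mb, 70.8%). When all lists were trimmed to 1 total length by dropping their shortest LADs, a setting chosen after seeing the data, the difference from the other lists was 4.48 points for BIX01294, -1.53 for TSA, -1.63 for shAC and -1.33 for DZNep. Whether a treatment changed variable regions or the length of the whole list cannot be told apart with these values.

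Both lists of BIX01294 called 277 of the 1-list regions and 709 of the 2-list regions (background 54.2% of all regions), both of DZNep 172 and 583 (49.5%), both of shAC 152 and 437 (43.5%) and both of TSA 121 and 339 (39.1%). Neither TSA list called 992 variable regions (49.7%, background 46.0%) and neither shAC list 827 (41.4%, near the background of 41.6%). Neither DZNep list called 574 (28.7%, background 35.9%) and neither BIX01294 list 349 (17.5%, background 30.5%). Called in both BIX01294 lists were thus 29.2% of 1-list, 67.7% of 2-list and 49.4% of all variable regions, and called in both TSA lists 12.8%, 32.3% and 23.0%.

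Few variable regions belonged to a single treatment. Both lists of BIX01294 and none of the other 6 called 32 (1.60%, background 0.734%) and those of TSA 13 (0.651%, background 0.340%). The counts were 9 for shAC (0.451%, background 0.251%) and 3 for DZNep (0.150%, background 0.0716%). Examples are an isolated region at chr14:100327343-100604323 (277 kb, WT embryo 1.8), covered at 93.7% and 100% in BIX01294 and at 43.5% and 49.0% in DZNep, and an isolated region at chr4:56963229-57286739 (324 kb, WT embryo 1.8), covered at 87.5% and 91.2% in TSA and at 0% in the other 6 lists. For shAC the longest was an edge at chr9:6479031-6675810 (197 kb, WT embryos 1.5 and x17), covered at 53.4% and 55.9%, just past the limit, and for DZNep an isolated region at chr18:4428926-4633802 (205 kb, WT embryo 1.8), covered at 52.0% and 65.2%. The TSA and DZNep examples had no coverage in any list of the other treatments.

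Conversely, neither TSA list and all other 6 called 68 variable regions (3.41%, background 2.81%), of which 61 were 2-list regions. Consensus regions had the higher share by this rule, at 4.28%. The same count was 40 for shAC (1.04%), 5 for DZNep (0.107%) and 0 for BIX01294 (0.00%). The longest for shAC, an isolated region at chr11:60777765-61249194 (471 kb, WT embryo 1.8), was covered at 23.9% and 0% in shAC and at 66.5 to 100% in the drug lists. The longest for DZNep was an edge at chr10:115203062-115365873 (163 kb, WT embryo x17), covered at 8.92% and 31.0% in DZNep and at 83.8 to 100% elsewhere.

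Finally, the place where a treated LAD ended was read at variable edges of 100 kb or longer whose inner end lay within 25 kb of the consensus block, 106 of them 1-list and 169 2-list. At 1-list edges, the LAD that held the block ended within 25 kb of the inner end, so that the block stopped as in most WT lists, in 55.0% ± 8.76 of edges (SD, n = 8 lists, 42.5 to 66.0%). It ended within 25 kb of the outer end in 15.4% ± 8.16. At 2-list edges the inner end was used in 23.2% ± 5.73 and the outer end in 30.5% ± 9.03, and the LAD ran on beyond it in 18.3% ± 5.96. In either class a minority of boundaries lay between both ends, 12.0% ± 6.07 and 15.9% ± 4.09, although that middle stretch made up 64.5% and 65.1% of the edges' length. In BIX01294 the LAD ended within 25 kb of the outer end at 42.0% (embryo 1.8) and 38.5% (embryo x17) of 2-list edges, ran beyond it at 26.0% and 26.6%, and ended at the inner end at 13.6% and 16.6%. The outer end did not lead in every list: the inner end took 26.6% and the outer end 26.0% of 2-list edges in shAC of embryo 1.5, 29.0% and 17.8% in shAC of embryo x17, and 26.04% and 20.7% in TSA of embryo x17. In shAC of embryo x17 and in TSA of embryos 1.8 and x17, the base probed in the consensus block at these 2-list edges was in no treated LAD in 26.6%, 19.5% and 27.2% of cases.

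**Figure D5:**
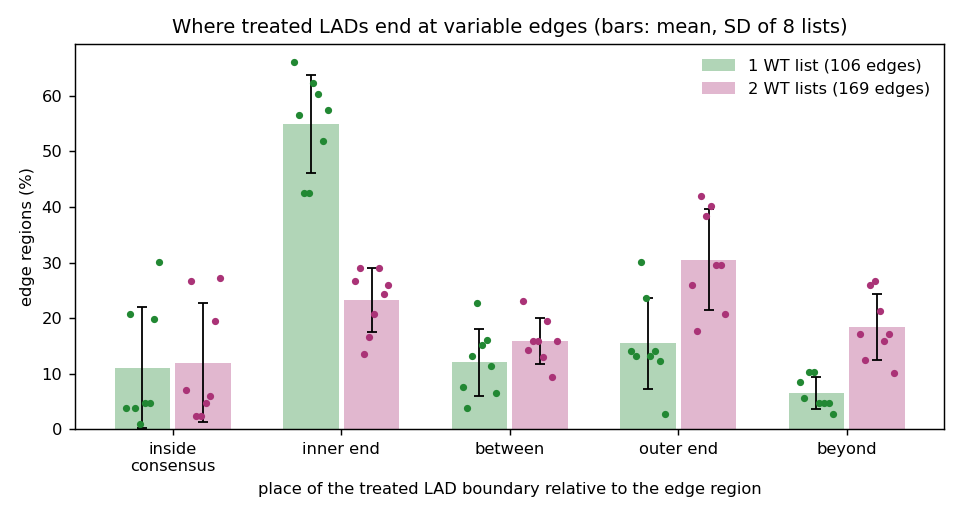
Percentage of edge regions (vertical axis) by the place where the LAD of a treated list ended, with bars for the mean and SD of 8 lists and a point per list. At 1-list edges the inner end leads with a mean of 55.0%, and at 2-list edges the outer end leads in the mean with 30.5%, though in neither shAC list nor in TSA of embryo x17.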

How the data were processed

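The authors deposited LAD intervals (mm9, per the submitters' processing notes) with no score or read number, so read depth could not be had, and precision comes from how many lists there are. The paper read for methods describes LADetector with joining under 25 kb and a filter over 100 kb, but does not say that it was run so on these lists, and the aligner is not given in the sources used here. Since the deposited intervals included shorter and closer ones, both steps were applied here, with Python 3.11.15 and numpy 2.4.6. The regions and tests were chosen with earlier results of these data known. Named regions are the 2 longest of each class, the 2 longest 1-list regions called in all 8 and 2-list regions called in none of the treated lists, and per treatment the longest exclusive and the longest missing region. Tests were exact permutation tests over lists, with Benjamini-Hochberg adjustment. The overlay was tested on simulated data (200 interval sets and 300 planted regions, 0 mismatches in each). Replicate 2 is embryo x17 in every group, but replicate 1 is embryo 1.8 for the drugs and embryo 1.5 for shAC. Deviations of the paired x17 lists from their treatment means correlated at 0.0578 to 0.201, which is 1 value for each of 6 pairs of treatments. No gene or sequence is given because no mm9 reference was used here. Alternatives covered joining, filters, lengths, overlap, position rule, chromosome X, omitted lists and the replicate block.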

Additional observations from a re-analysis of the deposited data

Results flagged for a closer look

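For 1-list regions, the share of edges called less that of isolated regions was positive in both lists of shAC, BIX01294 and DZNep and negative in both TSA lists, at -7.83 points in embryo 1.8 and -4.70 in embryo x17. The mean was 9.99 points higher in shAC than in TSA, 15.2 points higher in BIX01294 than in TSA and 9.30 points higher in DZNep than in TSA. These pairwise differences were not tested, because 2 lists against 2 allow no small p. TSA against the other 6 lists, a test chosen after the pattern was seen, differed by -11.5 points (exact permutation p = 0.0357, the smallest possible, adjusted p = 0.179 over 20 comparisons). Within the regions called in WT embryo 1.8 alone, TSA of embryo 1.8 called 26.4% of 220 edges and 41.5% of 301 isolated regions, and TSA of embryo x17 called 12.7% and 23.3%. Within the sets of the other embryos the direction was the other one. For WT embryo x17 alone, the shares were 23.3% of 116 edges and 16.5% of 133 isolated regions in TSA of embryo 1.8, and 33.6% and 27.8% in TSA of embryo x17. For WT embryo 1.5 alone, they were 23.4% of 64 edges and 15.4% of 26 isolated regions in TSA of embryo 1.8, and 14.1% and 7.69% in TSA of embryo x17, so the pattern held within 1 of the 3 sets. The part of the calling embryo in the difference was not tested further.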

How the results depend on the processing

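Of 240 alternative values of 17 results, 183 were rated as unchanged. A difference was rated so when it kept its direction and side of the threshold. A number or length had to stay within a fixed ratio of the main value, and a class share within its 95% interval. The 2-list minus 1-list difference kept its direction in all of its alternatives. With joining under 50 kb, edges, bridges and isolated regions were 42.6%, 29.4% and 28.01%, and 2-list edges minus isolated regions was -0.298 points. With the deposited intervals unjoined and unfiltered, the regions spanned 123 Mb, the classes were 29.8%, 15.6% and 54.5%, 2-list edge minus isolated was -4.61, and bridge minus edge was -1.27 (2-list) and -0.292 points (1-list). With LADs over 200 kb, the classes were 53.6%, 15.5% and 31.0%. With regions of 25 kb or longer, there were 1660 1-list and 1760 2-list regions (3420 in all), with 28.1% bridges and 23.4% isolated, edge minus isolated was -0.476 (2-list) and -1.30 (1-list), and bridge minus edge was 6.43 (adjusted p = 0.0391, exact permutation test) and 10.51 points (adjusted p = 0.0195). With regions of 100 kb or longer, there were 584, 591 and 1175, in classes of 35.6%, 10.7% and 53.7%. Consensus blocks of 100 kb or longer gave 15.5% bridges and 38.7% isolated, and the segment's own flanks gave 27.2%, 7.21% and 65.6%. Any overlap as a call gave edge minus isolated of 10.9 (2-list) and 16.1 (1-list) and bridge minus edge of 8.08 and 10.1 points. The cause of these shifts was not tested, except that the length limits change which regions are counted.

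With the replicate block, in which the paired lists of a treatment move together, the 2-list minus 1-list difference was 29.9 points with an adjusted p = 0.625 (exact permutation test). For the comparisons of treatments the block instead exchanged lists within a replicate number. The smallest unadjusted p of these exact permutation tests was 0.125 and 0.0625. No other result had passed without the block, so no other call could change. With the lists of embryo x17 alone it was 27.6 points. Trimming all treated lists to 1 length gave DZNep minus the others as -1.33 points. Leaving out a WT list, which makes the members those called in exactly 1 of 2 lists, gave 1254 to 1336 regions over 174 to 186 Mb, with 49.8 to 51.1% edges, 14.9 to 16.7% bridges and 33.1 to 34.1% isolated. Leaving out a treated list gave 28.5 to 31.0 points for 2-list minus 1-list, 0.493 to 2.90 and 1.17 to 3.82 for edge minus isolated (2-list, 1-list), 1.47 to 6.02 and 1.04 to 6.08 for bridge minus edge, and, against the other lists, -14.8 to -1.86 for shAC, 16.01 to 25.7 for BIX01294, 2.53 to 10.03 for DZNep and -21.6 to -14.8 for TSA. Leaving out a treatment gave 12.4 to 17.5 points for the same-embryo excess. Whole variable runs gave no value for results that need the 1-list or 2-list split.

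Limits: the WT group has 3 lists of unequal length, each treatment 2, and the depth behind a call is unknown, so a region missing from a list is one not called there, not one shown to be off the lamina.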
